A study of Mus musculus with 39 samples.

Results

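Gene expression was compared between whole testes of 2-month-old prKO mice and whole testes of 2-month-old srKO mice, across 19007 genes of the 22180 that had a probe set with 1 gene symbol. The groups compared held 7 of the 39 arrays of the series: 3 prKO arrays and 4 srKO arrays, chosen by their titles. The prKO mice carried Sf1:Cre with Prkar1a fl/fl, and the srKO mice carried Amh:Cre with the same floxed alleles, so Prkar1a was the targeted gene in both groups. The 8 wild-type (WT) littermates of 2 months are set beside them as a baseline, and the 4 prKO and 4 srKO mice of 2 weeks show the same comparison in younger animals. The spread behind each standard error and p at 2 months came from all 19 arrays of that age. These include the WT arrays and 4 arrays of lrKO mice (Cyp11a1:Cre). Each array is labelled a biological replicate. Values are log2 intensities, "±" gives the standard error of a log2 difference, and a gene is said to have risen, fallen or been called when its Benjamini-Hochberg adjusted p in limma was under 0.05.

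Prkar1a encodes the type 1 alpha regulatory subunit of protein kinase A (PKA). This subunit holds the catalytic subunits inactive until cyclic AMP (cAMP) binds, and its loss leaves the kinase more active. In the testis cAMP carries the signal of follicle-stimulating hormone in Sertoli cells, the supporting cells of the seminiferous tubule, and of luteinizing hormone in Leydig cells, which make testosterone. Sf1 is another name of Nr5a1, a nuclear receptor of the somatic precursors of the gonad, whose descendants include Sertoli and Leydig cells, and of the adrenal cortex, whereas Amh (anti-Mullerian hormone) is a product of Sertoli cells. The comparison therefore asks what the adult testis shows with the wider driver beyond what it shows with the Sertoli cell driver. In RNA of a whole organ, fewer cells of a type and less RNA per cell cannot be told apart. The label for RNA extraction names adrenal glands, whereas all other labels name testis; on the 2-month arrays used the summed log2 level was 14.43 to 15.95 for the spermatid list and 13.24 to 14.23 for the Sertoli list.

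Some arrays stood apart. Correlations between arrays over all tested genes were 0.949 to 0.977 within prKO, 0.980 to 0.993 within srKO and 0.985 to 0.994 within WT. The summed level of the 6 adipose genes tested was 11.48, 8.29 and 9.95 (log2) in prKO replicates 1, 2 and 3, against 7.96 to 8.22 in srKO and 7.86 to 8.39 in WT. Of these 6 genes 5 were called higher in prKO than in srKO, where 13.4% of all tested genes were. The summed level of 5 epididymal genes was 11.81 in prKO replicate 1, 7.59 and 7.61 in the other prKO arrays, 7.29 to 7.98 in srKO and 7.47 to 7.89 in WT; 0 of the 5 were called. Within that list Adam7, a protease gene of the epididymis, read 11.70, 4.25 and 4.47 in prKO testes and 4.24 to 5.56 in srKO testes. Results are therefore also given for prKO replicate 2 alone, that is without prKO replicates 1 and 3. In that setting prKO is a single array, assumed to vary like the other groups, which alone supply the spread; its counts and p are given to show what moves, and a call made there adds no support. The part of adipose or epididymal RNA in the other results was not tested.

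The WT arrays were also split into sets by replicate number, a division that no label marks as a batch. Replicates 1 to 4 and replicates 5 to 8 of WT differed in 172 of the 19007 genes. Across all these genes the log2 difference between the sets correlated with that between prKO and srKO (r = 0.41, a description over genes, which are not independent). Of the 172 genes 84 were also called between prKO and srKO, where 25.6% of all tested genes were. All 84 had the same sign. The labels do not say which littermates belong to which line. A WT-crossed contrast, with prKO set against WT replicates 1 to 4 and srKO against WT replicates 5 to 8, called 455 of the 19007 genes. The reverse assignment called 4559, with a median standard error of 0.16 in each and 0.12 in the direct comparison. With so few of all genes called in the WT-crossed contrast, a count of 0 in a short list there is not particular to that list. Whether any mice were handled apart is not labelled, so such a difference and a difference between the lines cannot be told apart. Of the 97 called genes named here 37 kept their call in the WT-crossed contrast and 60 lost it. When only the prKO and srKO arrays were fitted 53 of the 97 kept it.

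**Figure D1:**
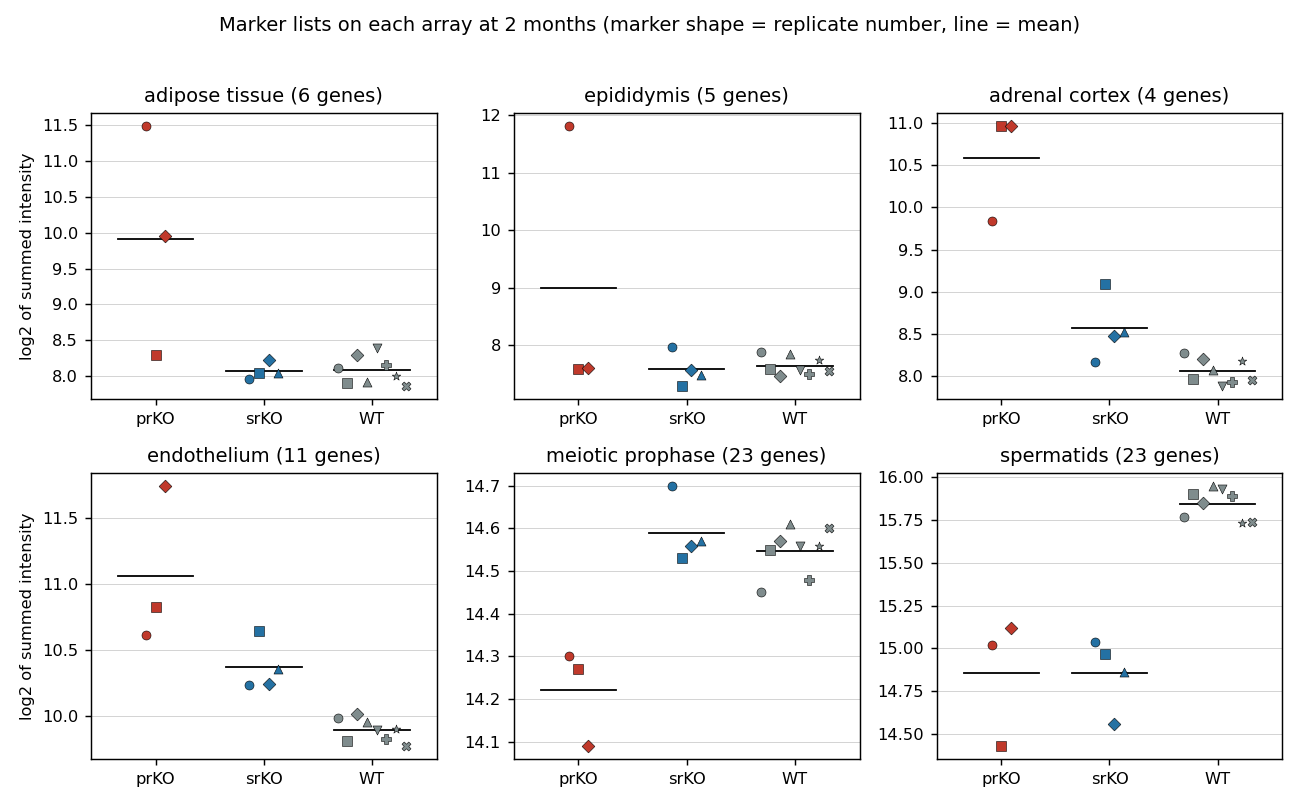
Log2 of the summed intensity of marker lists on each array at 2 months, by group, with marker shape giving the replicate number and the line the mean. Adipose genes are high in prKO replicates 1 and 3 and epididymal genes in prKO replicate 1, while the meiotic list is lower in all 3 prKO arrays than in any srKO array and the spermatid list overlaps between prKO and srKO.

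Between prKO and srKO testes 4860 genes were called, or 25.6% of those tested: 2556 rose (13.4%) and 2304 fell (12.1%). Each list count below is to be read beside these shares. These calls use a spread pooled over all 19 arrays of 2 months, although arrays correlated least within prKO (0.949 to 0.977). A pooled spread can therefore understate the error of prKO. With only the prKO and srKO arrays fitted 1083 genes were called, 705 higher and 378 lower. Most differences were small. Only 341 of the called genes differed at least 2-fold, 277 of them higher and 64 lower in prKO. Set against WT, 9206 genes were called in prKO (48.4%, 4948 or 26.0% higher and 4258 or 22.4% lower) and 4837 in srKO (25.4%, 2785 or 14.7% higher and 2052 or 10.8% lower). The direct comparison depended on prKO replicate 3, without which 2683 genes were called, and with prKO replicate 2 alone 2090 were called.

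Prkar1a itself read 8.66, 8.63 and 8.36 in prKO testes, against 8.98, 9.10, 9.18 and 9.08 in srKO testes and a WT median of 8.88. The knockout groups did not overlap, and the difference was -0.53 ± 0.10 (1.45-fold lower in prKO, adjusted p = 0.00093). In the WT-crossed contrast the difference was -0.29 with adjusted p = 0.13. The position of the probe set relative to the floxed part is not known here, and the level does not measure recombination. Nr5a1, the gene of the driver, read 8.10, 8.79 and 9.14 in prKO testes, against 7.83, 8.37, 7.83 and 7.84 in srKO testes and a WT median of 7.33. It rose by 0.71 ± 0.17 (adjusted p = 0.0049), although srKO replicate 2 exceeded prKO replicate 1, and had adjusted p = 0.12 in the WT-crossed contrast. Among 8 tested neighbours of the driver genes, 2 fell and 1 rose, where 12.1% and 13.4% of all tested genes did. The rise was in Nek6, a mitotic kinase gene near Nr5a1 (0.72 ± 0.16, adjusted p = 0.0034, and 0.088 in the WT-crossed contrast). Amh read 5.47, 5.44 and 5.53 in prKO testes, against 5.52, 5.03, 5.25 and 5.28 in srKO testes, and was not called (adjusted p = 0.24).

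**Figure D2:**
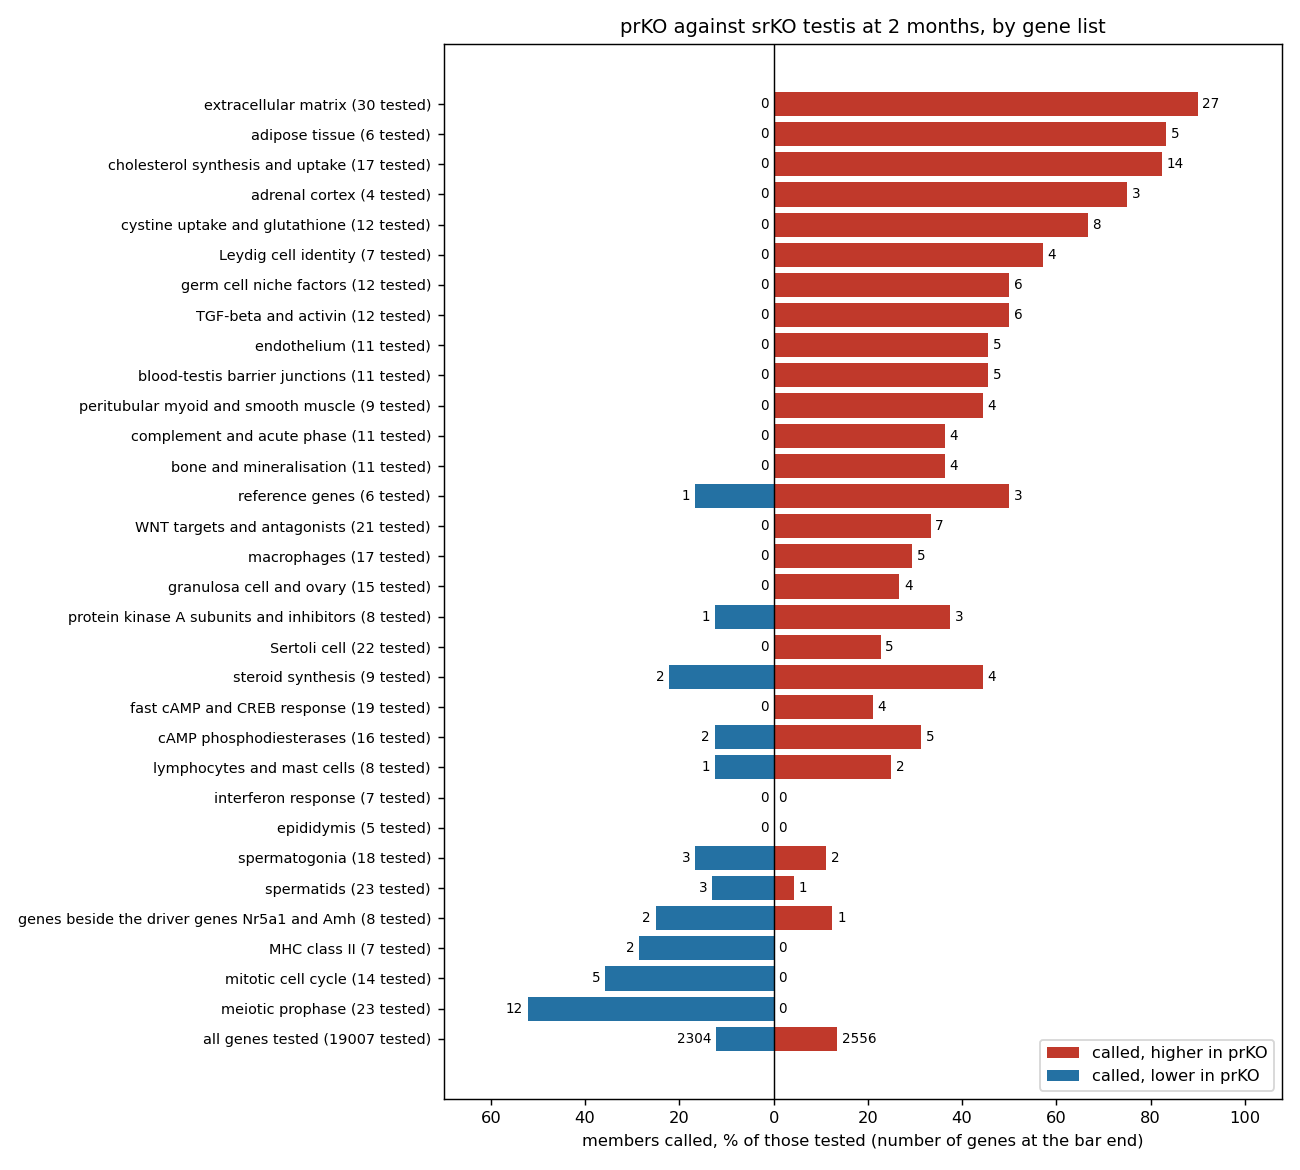
Share of tested members called higher (right, red) or lower (left, blue) in prKO than in srKO testes at 2 months for each gene list, with the number of genes at the bar end and all 19007 tested genes in the lowest row. Extracellular matrix (27 of 30), cholesterol (14 of 17) and glutathione genes (8 of 12) lie to the right, and meiotic prophase genes (12 of 23) to the left.

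Abcb1b encodes a P-glycoprotein that pumps drugs and steroids out of cells, and it read 8.13, 9.31 and 11.11 in prKO testes, against 5.13, 5.54, 5.06 and 5.19 in srKO testes. Replicate 3 was the highest, but all prKO arrays lay far above all srKO arrays, and the difference was 4.29 ± 0.40 (19.5-fold, adjusted p = 2e-06). Without replicate 3 it was 3.49 and without replicate 1 it was 4.98. Ctla2a, whose product inhibits cathepsin L-like proteases, read 6.59, 7.24 and 10.97 in prKO testes, against 3.97 to 4.31 in srKO testes, where every array was below the filter value of 4.62. Its rise was at least 12.5-fold over the 3 prKO arrays (adjusted p = 0.00014), and at least 4.91-fold without replicate 3, the highest, or 22.4-fold without replicate 1. Chil3, a chitinase-like lectin of activated macrophages, read 7.11, 6.71 and 8.94 in prKO testes and 3.96 to 4.77 in srKO testes (3.32 ± 0.35, adjusted p = 8.6e-06). Of its 4 srKO arrays 1 was above the filter value, so the size of this difference is uncertain, and without replicate 3 it was 2.64. Il33, an alarm cytokine of stromal cells, read 8.62, 8.88 and 9.85 in prKO testes and 6.08 to 7.09 in srKO testes (2.57 ± 0.22, adjusted p = 7.8e-07). These 4 genes kept their calls in the WT-crossed contrast.

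Other large rises lay mainly in prKO replicates 1 and 3, the arrays with the higher adipose sums. Fabp4, the fatty acid carrier of fat cells, read 10.25, 4.74 and 8.48 in prKO testes, against 4.14 to 5.17 in srKO testes, and prKO replicate 2 lay within the srKO range. Its difference was 3.16 ± 0.80 (adjusted p = 0.0077), 1.95 without replicate 1, 4.70 without replicate 2, and 0.08 with prKO replicate 2 alone (adjusted p = 0.96). Cyp2e1, a cytochrome P450 of liver and fat, read 10.02, 5.25 and 8.11 in prKO testes and 4.80 to 5.41 in srKO testes, and its difference of 2.65 was 1.54 without replicate 1, 3.93 without replicate 2 and 0.11 with replicate 2 alone (adjusted p = 0.86). Lep, the gene of the fat hormone leptin, read 8.30, 4.85 and 6.44 in prKO testes and was below the filter value on every srKO array. It was at least 3.76-fold higher (adjusted p = 0.0024), or 2.04-fold without replicate 1 and 6.73-fold without replicate 2, with a difference of 0.40 for replicate 2 alone (adjusted p = 0.12). Ceacam10, a cell adhesion gene, read 11.02 in prKO replicate 1, 4.84 and 6.80 in the other prKO arrays and 4.70 to 5.10 in srKO. Its call (2.72 ± 0.84, adjusted p = 0.022) was lost without prKO replicate 1 (0.99, adjusted p = 0.11), and without replicate 2 the difference was 4.08. Prg4, the gene of the joint lubricant lubricin, read 8.37, 5.66 and 7.64 in prKO testes and 4.34 to 5.10 in srKO testes (2.49 ± 0.40, adjusted p = 0.0004), which was 3.28 without replicate 2, and with prKO replicate 2 alone its adjusted p was 0.071. Fabp4, Cyp2e1, Lep and Ceacam10 were not called in the WT-crossed contrast.

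Extracellular matrix genes were higher in prKO testes nearly throughout the list. Of 30 tested 27 rose and 0 fell, with a median log2 difference of 1.04, against 0.01 over all genes. Dpt, which encodes dermatopontin, a collagen-binding protein, read 9.84, 9.77 and 10.26 in prKO testes, against 6.13, 7.26, 5.94 and 5.72 in srKO testes. The prKO arrays were close together and well above srKO replicate 2, the highest of the others, and the difference was 3.70 ± 0.34 (13.0-fold, adjusted p = 2e-06). Mmp2, a protease that cuts collagen and gelatin, read 9.13, 10.19 and 11.84 in prKO testes, against 6.50 to 7.18 in srKO testes (3.65 ± 0.38, 12.6-fold, adjusted p = 8.4e-06). For Mmp2 the difference was 2.93 without replicate 3 and 4.28 without replicate 1. Lum, the collagen-organising proteoglycan lumican, read 6.68, 7.17 and 8.14 in prKO testes and 4.28 to 5.27 in srKO testes (2.71 ± 0.26, adjusted p = 2.6e-06).

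Other matrix genes differed in how far they depended on prKO replicate 3. Lox, the enzyme that crosslinks collagen and elastin, rose by 2.25 ± 0.30 (1.64 without replicate 3) and Ogn, the small proteoglycan osteoglycin, by 1.77 ± 0.17. Ogn read 10.48, 10.35 and 10.42 in prKO testes and 8.47 to 9.13 in srKO testes, so its rise was even across the prKO arrays. Fn1, the adhesive glycoprotein fibronectin, read 9.73, 9.12 and 11.48 in prKO testes and 7.59 to 8.47 in srKO testes (2.03 ± 0.34, adjusted p = 0.00047; 1.35 without replicate 3). Col3a1, the fibrillar collagen of soft tissue, read 9.32, 9.42 and 11.11 in prKO testes and 7.87 to 8.89 in srKO testes (1.68 ± 0.31). Postn, the matricellular protein periostin, rose by 1.79 ± 0.36 (1.11 without replicate 3 and 2.38 without replicate 2) but was not called in the WT-crossed contrast (1.70, adjusted p = 0.071) or with prKO replicate 2 alone (0.62, adjusted p = 0.15). Of the 30 genes 19 were called without prKO replicate 3, 16 with prKO replicate 2 alone and 13 in the WT-crossed contrast, all of them higher. Against WT the list had 30 of 30 genes called higher in prKO and 14 of 30 in srKO, with medians of 1.57 and 0.34.

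Genes of steroid synthesis divided. Of 9 tested 4 rose and 2 fell in prKO relative to srKO. Star, which carries cholesterol to the inner mitochondrial membrane, read 10.95, 11.73 and 11.49 in prKO testes, against 9.48, 10.21, 9.61 and 9.57 in srKO testes. All prKO arrays lay above all srKO arrays, by 1.67 ± 0.27 (3.19-fold, adjusted p = 0.00039), and in the WT-crossed contrast the difference was 0.84 with adjusted p = 0.067. Cyp11a1, the side-chain cleavage enzyme that makes pregnenolone, read 11.66, 12.52 and 12.17 in prKO testes and 10.95 to 11.57 in srKO testes (0.92 ± 0.16, adjusted p = 0.00075). It was likewise not called in the WT-crossed contrast (0.68, adjusted p = 0.086). Fdx1, the ferredoxin that passes electrons to mitochondrial P450 enzymes, rose by 0.94 ± 0.19, and Tspo, an outer mitochondrial membrane protein, by 0.62 ± 0.12; the WT-crossed contrast gave adjusted p = 0.066 and 0.068 for them.

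The enzymes of the final steps to testosterone went the other way or were not called. Hsd3b6, a 3-beta-hydroxysteroid dehydrogenase of adult Leydig cells, read 7.81, 6.87 and 6.18 in prKO testes, against 8.43, 8.99, 9.77 and 8.52 in srKO testes and a WT median of 10.13. Every prKO array lay below every srKO array, by -1.98 ± 0.35 (3.93-fold lower, adjusted p = 0.00069), and the call was kept in all settings run. Hsd17b3, which makes testosterone from androstenedione, read 9.10, 10.30 and 9.39 in prKO testes and 10.10 to 10.87 in srKO testes. Its fall (-0.76 ± 0.24, adjusted p = 0.025) was lost without prKO replicate 1 (-0.51, adjusted p = 0.13), without prKO replicate 3 (-0.66, adjusted p = 0.12) and without srKO replicate 2 (-0.59, adjusted p = 0.071). Hsd3b1, the paralog of Hsd3b6, read 8.25, 9.20 and 9.05 in prKO testes and 7.88 to 9.04 in srKO testes and was not called (0.36 ± 0.26, adjusted p = 0.32). Cyp17a1, the 17-hydroxylase and lyase on the way to androgens, was not called (0.31 ± 0.18, adjusted p = 0.21). Whether probes of close paralogs such as Hsd3b1 and Hsd3b6 respond to each other's transcripts was not tested.

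Adrenal cortex genes were higher in prKO. Of 4 tested 3 rose and 0 fell. Mrap, the accessory protein that the receptor of the pituitary hormone ACTH needs, read 9.47, 10.60 and 10.36 in prKO testes, against 7.37, 8.39, 7.91 and 7.86 in srKO testes (2.26 ± 0.22, 4.78-fold, adjusted p = 3.3e-06). Cyp11b1, the enzyme of the last step to corticosterone, read 5.63, 6.67 and 8.18 in prKO testes, against 4.66 to 4.78 in srKO testes and a WT median of 4.80. No prKO array overlapped with srKO, whose arrays stayed just above the filter value, and the rise was 2.11 ± 0.34 (4.31-fold, adjusted p = 0.00039). It was 1.43 without replicate 3 and 2.71 without replicate 1. Cyp21a1, the 21-hydroxylase shared by glucocorticoid and mineralocorticoid synthesis, read 7.08, 8.28 and 8.46 in prKO testes, against 6.03, 7.34, 5.92 and 6.29 in srKO testes and a WT median of 4.64. The groups overlapped through srKO replicate 2, with a difference of 1.55 ± 0.33 (adjusted p = 0.0024; 1.42 and adjusted p = 0.093 in the WT-crossed contrast). Against WT this gene was 3.37 higher in prKO and 1.82 higher in srKO on the log2 scale.

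Of 7 Leydig cell identity genes 4 rose and 0 fell, Nr5a1 among them. Pdgfra, a growth factor receptor of Leydig precursors and stromal cells, rose by 1.13 ± 0.22, and Hsd11b1, which interconverts active and inactive glucocorticoids, by 1.08 ± 0.19. In the WT-crossed contrast 0 of the 7 were called, with adjusted p = 0.055 for Pdgfra and 0.053 for Hsd11b1.

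Cholesterol synthesis and uptake genes rose together. Of 17 tested 14 rose and 0 fell, with a median of 0.76, and 12 of 17 were called with prKO replicate 2 alone and 10 of 17 in the WT-crossed contrast. Nsdhl, a sterol dehydrogenase of the late pathway, read 9.77, 9.72 and 9.33 in prKO testes, against 7.99, 8.32, 8.10 and 8.13 in srKO testes (1.47 ± 0.10, 2.77-fold, adjusted p = 4.5e-08). Fdps, the synthase of farnesyl diphosphate, read 9.20, 9.42 and 9.21 in prKO testes and 7.56 to 7.95 in srKO testes (1.58 ± 0.13, adjusted p = 6.3e-07). Both genes kept the prKO arrays within a narrow range and clear of srKO. Against WT, Fdps was 0.95 higher in prKO and differed by -0.63 in srKO (log2), and Cyp51, which demethylates lanosterol, was 0.34 higher in prKO and differed by -0.87 in srKO. Cyp51 differed by 1.22 ± 0.14 between the knockouts. Insig1, which retains the sterol sensor in the endoplasmic reticulum, rose by 1.33 ± 0.15 and Sc5d, a sterol desaturase, by 1.08 ± 0.15. Hmgcs1, the synthase that opens the mevalonate pathway, read 10.57, 11.23 and 10.97 in prKO testes and 9.91 to 10.32 in srKO testes (0.87 ± 0.12, adjusted p = 0.00015).

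Transcription of these enzymes is known to be driven by sterol regulatory element-binding proteins. The letters TCACNCCAC, a form of their binding element, were searched on both strands in the 250 bases before each gene's start in the RefSeq promoter table (GRCm38.p6), which held 14664 of the 19007 genes. They were found in 1.24% of all these promoters, in 1.32% of those of genes that rose and in 1 of 12 cholesterol genes with an entry, Hmgcs1. That promoter is shown as the member of the list that holds the element; it covers chr13:119690101-119690350 on the plus strand of GRCm38.p6, 5′ to 3′, and the capitals mark the match, whose first base is 137 bases before the start.
Hmgcs1: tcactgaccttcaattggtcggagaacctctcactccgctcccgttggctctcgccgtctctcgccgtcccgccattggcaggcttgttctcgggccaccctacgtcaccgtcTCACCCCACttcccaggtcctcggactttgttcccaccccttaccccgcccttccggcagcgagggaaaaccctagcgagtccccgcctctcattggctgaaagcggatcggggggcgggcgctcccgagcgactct

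Of 8 tested PKA subunits and inhibitors 3 rose and 1, Prkar1a, fell, where 13.4% and 12.1% of all tested genes did. Prkar2b, the type 2 beta regulatory subunit, read 9.20, 9.48 and 9.53 in prKO testes, against 8.50, 8.58, 8.35 and 8.40 in srKO testes and a WT median of 7.08. The 3 groups did not overlap, and the difference between the knockouts was 0.95 ± 0.13 (1.93-fold, adjusted p = 0.00014). The inhibitor Pkia (0.58 ± 0.17) and the catalytic subunit gene Prkacb (0.39 ± 0.10) rose, and both calls were lost without prKO replicate 3 (adjusted p = 0.10 and 0.057), that of Pkia also without srKO replicate 3 (0.057). Prkar2b kept its call in the WT-crossed contrast, and Pkia (adjusted p = 0.24) and Prkacb (0.21) did not.

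Among 16 cAMP phosphodiesterases, which degrade the messenger, 5 rose and 2 fell, where 13.4% and 12.1% of all tested genes did. Pde7b read 7.67, 8.25 and 9.17 in prKO testes, against 6.76, 7.11, 7.37 and 7.21 in srKO testes and a WT median of 5.75 (1.25 ± 0.25, adjusted p = 0.0016). Pde8b rose by 0.83 ± 0.20, Pde3a by 0.76 ± 0.18 and Pde4d by 0.56 ± 0.10. The falls of Pde8a (-0.42) and Pde10a (-0.29) were not called without prKO replicate 3 (adjusted p = 0.081 and 0.075), and that of Pde10a was also lost without prKO replicate 1 or srKO replicates 2, 3 or 4 (0.28, 0.08, 0.077 and 0.073). Of the 16, 1 was called in the WT-crossed contrast, Pde4d, and Pde7b (adjusted p = 0.053), Pde8b (0.14), Pde3a (0.16) and both falls were not. Of 19 genes of the fast cAMP and CREB response 4 rose and 0 fell. Rgs2, a brake on G protein signalling, read 8.99, 9.35 and 9.83 in prKO testes, against 7.80 to 8.05 in srKO testes (1.43 ± 0.14, 2.69-fold, adjusted p = 3.8e-06), and Crispld2, a secreted protein gene, rose by 0.71 ± 0.18. The count of rises in this list was 6 without prKO replicate 1 and 2 without prKO replicate 3, srKO replicate 2 or srKO replicate 4. The WT-crossed contrast called 1, Rgs2, and Crispld2 was not (adjusted p = 0.095).

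**Figure D3:**
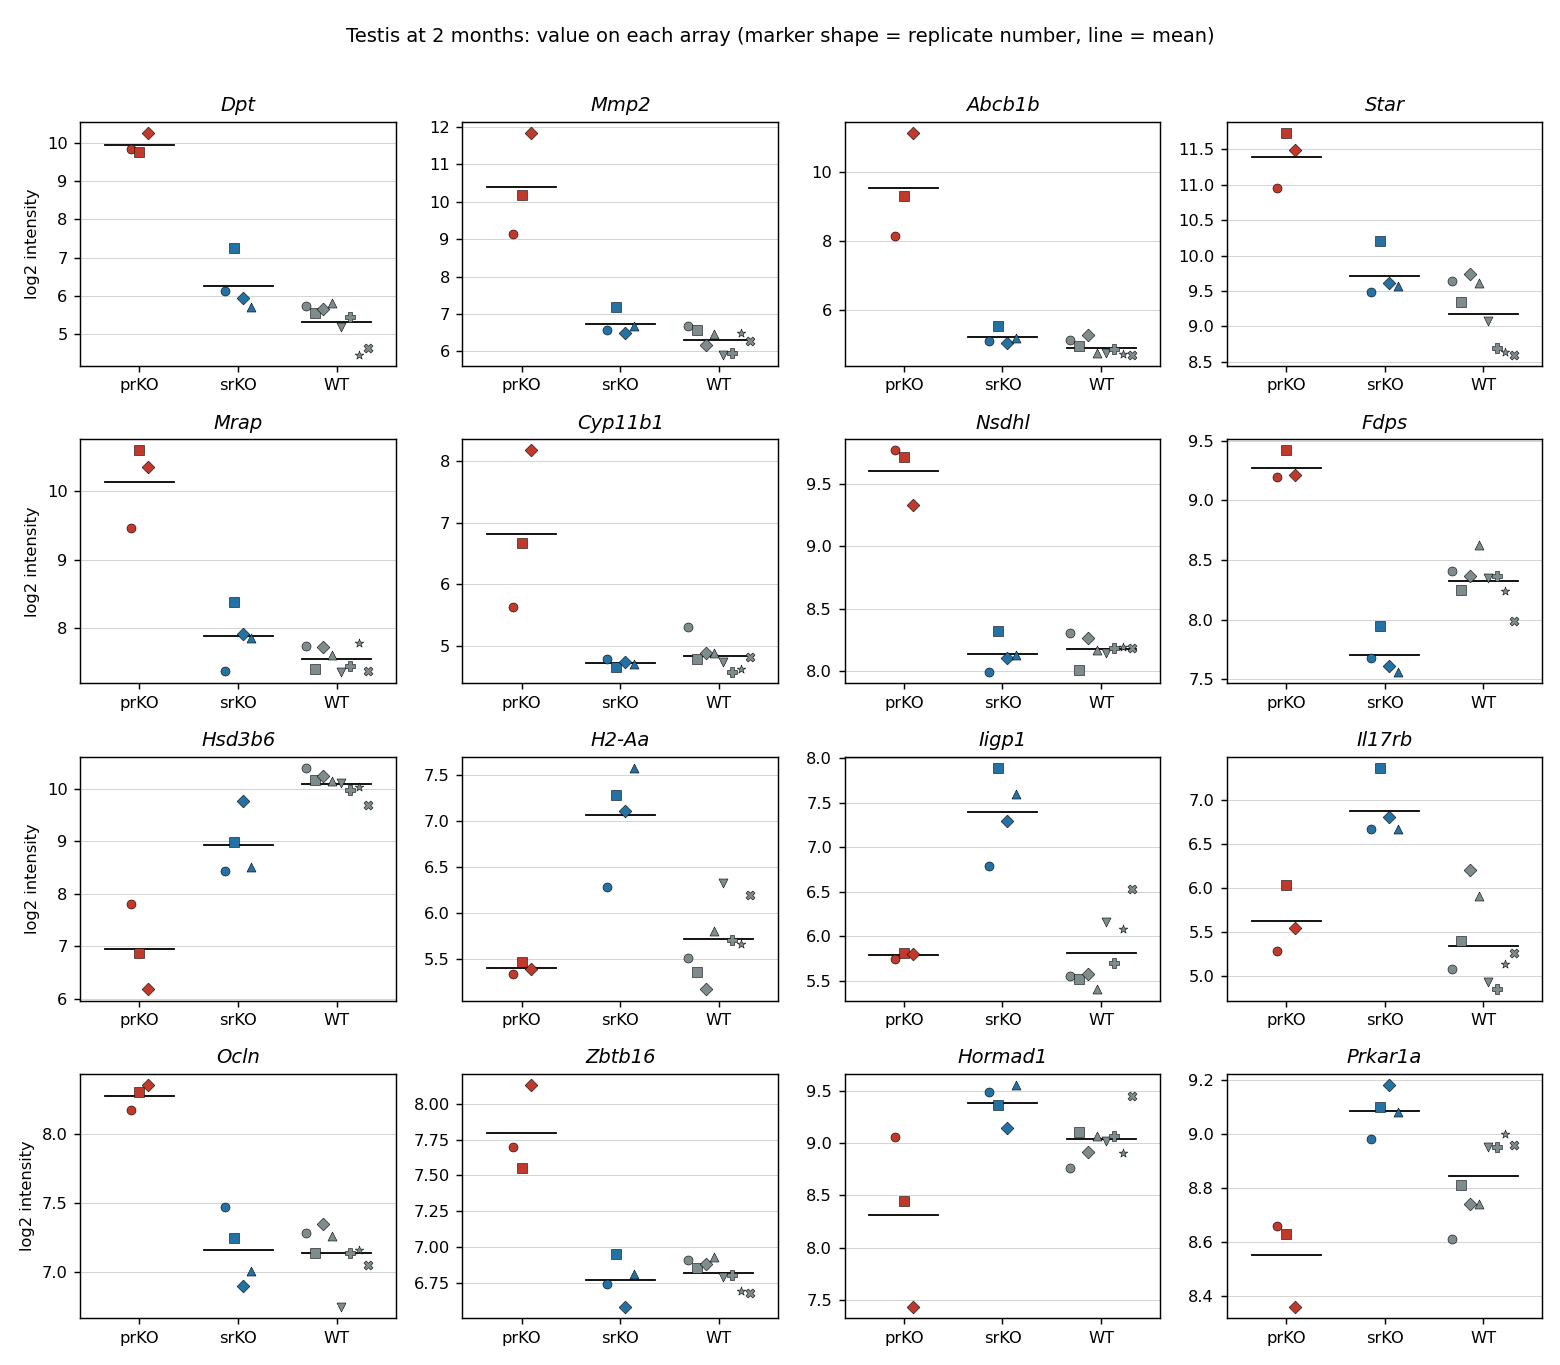
Log2 intensity on each array at 2 months for 16 genes in prKO (3 arrays), srKO (4) and WT (8) testes, with marker shape giving the replicate number and the line the mean. Dpt, Star, Mrap and Nsdhl are high in all prKO arrays, H2-Aa, Iigp1 and Il17rb are high in srKO arrays, and Hsd3b6 is lowest in prKO.

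Sertoli cell genes gave a count that turned on single arrays. Of 22 tested 5 rose and 0 fell, where 13.4% and 12.1% of all tested genes did. Only 1 rise was called without srKO replicate 3, and 2 without prKO replicate 2, prKO replicate 3 or srKO replicate 4. Without prKO replicate 1, 14 were called, and in the WT-crossed contrast 0 were called. Tsx, a testis-specific X-linked gene of Sertoli cells, read 10.60, 11.21 and 11.12 in prKO testes, against 10.20 at most in srKO testes and a WT median of 10.41 (0.88 ± 0.17, adjusted p = 0.0014; 0.33 and adjusted p = 0.19 in the WT-crossed contrast). Fshr, the receptor of follicle-stimulating hormone, read 6.00, 6.63 and 6.33 in prKO testes, against 5.74 to 6.07 in srKO testes and a WT median of 6.93. It was not called (0.41 ± 0.15, adjusted p = 0.056), but was called without prKO replicate 1 (0.57, adjusted p = 0.012) and without WT replicates 3 or 4 (adjusted p = 0.044 and 0.046). Against WT it was lower in both knockouts, by -0.68 in prKO and -1.09 in srKO, whereas more genes of the list were higher. Of the 22 genes 15 were higher and 2 lower in prKO than in WT (median 0.6), where 26.0% and 22.4% of all tested genes were. In srKO 8 were higher and 2 lower than in WT (median 0.29), where 14.7% and 10.8% of all tested genes were.

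Genes of the junctions between Sertoli cells, which form the blood-testis barrier, included 5 of 11 that rose and 0 that fell. Among all tested genes 13.4% rose and 12.1% fell. Ocln, the tight junction protein occludin, read 8.17, 8.30 and 8.35 in prKO testes, against 7.47, 7.25, 6.90 and 7.01 in srKO testes and 6.75 to 7.35 in WT. The prKO arrays stood clear of the others, by 1.12 ± 0.13 (2.17-fold, adjusted p = 2.3e-05). Gja1, a connexin of gap junctions, rose by 0.88 ± 0.14 (adjusted p = 0.00043; 0.72 and adjusted p = 0.053 in the WT-crossed contrast). Cldn3, a claudin of newly formed tight junctions, read 9.12, 6.57 and 6.48 in prKO testes and 5.97 to 6.42 in srKO testes. Its call (1.27 ± 0.40, adjusted p = 0.025) was lost without prKO replicate 1 (0.41, adjusted p = 0.091) and without srKO replicate 3 (adjusted p = 0.057). Ocln alone of the 11 was called in the WT-crossed contrast, and Cldn3 had adjusted p = 0.35.

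Of 12 germ cell niche factors 6 rose and 0 fell, where 13.4% and 12.1% of all tested genes did. Igf1, insulin-like growth factor 1, read 8.02, 8.36 and 9.47 in prKO testes and 6.72 to 7.56 in srKO testes (1.60 ± 0.26, 3.04-fold, adjusted p = 0.00037). Fgf2, a growth factor of spermatogonial stem cells, rose by 0.65 ± 0.15. Kitl, the ligand of the receptor Kit, rose by 0.62 ± 0.17, a call lost without prKO replicate 3 (0.54, adjusted p = 0.063). Of the 12 niche factors 3 were called with prKO replicate 2 alone and 1 in the WT-crossed contrast, Igf1, whereas Fgf2 (adjusted p = 0.14) and Kitl (0.24) were not. Of 15 granulosa cell and ovary genes 4 rose and 0 fell, of which Rspo1, a WNT enhancer of ovary development, rose by 0.75 ± 0.12 (adjusted p = 0.00028). Foxl2, the transcription factor of granulosa cells, read 5.56, 5.57 and 5.49 in prKO testes, against 5.17 to 5.31 in srKO testes and 5.06 to 5.59 in WT, so prKO lay within the WT range. Its difference from srKO (0.32 ± 0.10, adjusted p = 0.028) was not called without any single prKO array (adjusted p = 0.058 to 0.064), nor without srKO replicates 1 or 3 (0.051 and 0.067). The granulosa count was 1 without prKO replicate 3 or srKO replicate 1, and 2 without srKO replicates 3 or 4. None of the 15 was called in the WT-crossed contrast, Rspo1 with adjusted p = 0.051.

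WNT pathway genes included 7 of 21 that rose and 0 that fell. Sfrp1, a secreted WNT antagonist, read 7.97, 8.17 and 10.96 in prKO testes and 6.96 to 7.65 in srKO testes (1.73 ± 0.44, adjusted p = 0.0074). Replicate 3 was far above the others, and without it the difference was 0.77. Axin2, a direct target and feedback inhibitor, rose by 0.61 ± 0.11, and Ccnd1, the cell cycle gene cyclin D1, by 0.68 ± 0.18. Of 12 TGF-beta and activin genes 6 rose and 0 fell. Fstl1, a follistatin-like protein, rose by 1.22 ± 0.24, Ltbp1, which stores latent TGF-beta in the matrix, by 0.93 ± 0.14, and Tgfb2, a ligand, by 0.86 ± 0.15. Without prKO replicate 3, 3 of the 12 were called. In the WT-crossed contrast, which called 455 of all 19007 genes, 0 of the 21 WNT genes and 0 of the 12 TGF-beta genes were called.

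Germ cell genes of meiotic prophase were lower in prKO. Of 23 tested 12 fell and 0 rose, with a median of -0.41, whereas against WT 16 fell in prKO, and 3 fell and 2 rose in srKO. Hormad1, a protein of unsynapsed chromosome axes, read 9.06, 8.45 and 7.43 in prKO testes, against 9.49, 9.37, 9.15 and 9.56 in srKO testes and 8.76 to 9.46 in WT. Every prKO array was below every srKO array, with replicate 3 lowest, and the difference was -1.08 ± 0.24 (2.11-fold lower, adjusted p = 0.0032). Hormad2, its partner on chromosome axes, differed by -0.61 ± 0.14 and Spo11, which makes the breaks that start recombination, by -0.57 ± 0.12. The number of meiotic genes called was 9 without prKO replicate 3, 4 with prKO replicate 2 alone and 0 in the WT-crossed contrast, in which Hormad1 differed by -0.93 (adjusted p = 0.12). Sycp1-ps1, a pseudogene of the synaptonemal complex gene Sycp1, read 5.76, 5.49 and 4.51 in prKO testes and 6.26 to 7.11 in srKO testes (-1.45 ± 0.32, adjusted p = 0.003, and 0.15 in the WT-crossed contrast).

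Of 14 mitotic cell cycle genes 5 fell and 0 rose. Bub1, a kinase of the spindle checkpoint, read 9.32, 9.03 and 8.79 in prKO testes and 9.44 to 9.81 in srKO testes (-0.63 ± 0.11, adjusted p = 0.00061), and Top2a, which untangles DNA, differed by -0.49 ± 0.11. Without prKO replicate 3, 3 of the 14 fell, and in the WT-crossed contrast 1 fell, Bub1, with adjusted p = 0.086 for Top2a. Of 18 spermatogonial genes 2 rose and 3 fell, near the 13.4% and 12.1% over all tested genes, while 6 fell without srKO replicate 2. Zbtb16, a transcription factor of undifferentiated spermatogonia that other cells also express, read 7.70, 7.55 and 8.13 in prKO testes, against 6.58 to 6.95 in srKO testes and 6.68 to 6.93 in WT. It rose 2.03-fold (1.02 ± 0.11, adjusted p = 1.5e-05). Kit, the receptor of differentiating spermatogonia, read 6.74, 7.82 and 7.53 in prKO testes and 7.78 to 8.26 in srKO testes, and its fall (-0.66 ± 0.19, adjusted p = 0.016) was lost without prKO replicate 1 (-0.35, adjusted p = 0.11) and in the WT-crossed contrast (adjusted p = 0.14), where of the 18 genes only Zbtb16 was called.

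Spermatid genes were low in both knockouts. Against WT 22 of 23 fell in prKO and 19 of 23 in srKO, with medians of -1.01 and -0.91, and between the knockouts 1 rose and 3 fell. Over all tested genes 13.4% rose and 12.1% fell between the knockouts. With prKO replicate 2 alone 11 fell, 6 fell without prKO replicate 1, and 4 rose and 2 fell without srKO replicate 1. Prm1, the protamine that packs sperm DNA, read 9.95, 9.55 and 10.68 in prKO testes, against 10.35, 9.79, 7.69 and 9.20 in srKO testes and 11.27 to 11.81 in WT. The knockouts overlapped and both lay below every WT array. Neither Prm1 (0.80 ± 0.39, adjusted p = 0.13) nor Tnp1, a transition protein gene (0.80 ± 0.38, adjusted p = 0.13), was called between them, but without srKO replicate 1 both were (1.17 and 1.15, adjusted p = 0.023 and 0.026). Acr, the acrosomal protease acrosin, read 10.25, 10.12 and 9.89 in prKO testes and 10.48 to 11.12 in srKO testes (-0.70 ± 0.14, adjusted p = 0.0016, and 0.14 in the WT-crossed contrast, where 0 of the 23 were called).

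Among the 12 largest falls were also genes of testis or germ cells. Rbm31y, an RNA-binding protein gene, read 6.43, 5.21 and 7.18 in prKO testes, against 8.30, 8.59, 7.13 and 7.76 in srKO testes and a WT median of 8.98 (-1.67 ± 0.35, adjusted p = 0.0021). Rbm31y, Adam29, Kcnab3 and Cngb3 were not called in the WT-crossed contrast (adjusted p = 0.16, 0.11, 0.27 and 0.051). Adam29, a membrane protein gene of germ cells, differed by -1.30 ± 0.30, Kcnab3, a potassium channel subunit, by -1.29 ± 0.27, and Cngb3, a cyclic nucleotide-gated channel subunit known from cone photoreceptors, by -1.47 ± 0.25. Ptprv, a receptor phosphatase of testis and bone, differed by -1.33 ± 0.34 and, in the WT-crossed contrast, by -0.17 (adjusted p = 0.76). Zfp981 read 7.07, 5.48 and 7.03 in prKO testes, against 8.47 to 9.03 in srKO testes and 6.60 to 9.10 in WT (-2.31 ± 0.60, adjusted p = 0.0089). Zfp982 read 6.56, 5.78 and 6.21 in prKO testes and 7.27 to 7.67 in srKO testes (-1.37 ± 0.35, adjusted p = 0.0078). These zinc finger genes belong to a family of similar sequences on mouse chromosome 4, for which cross-hybridisation was not tested, and in the WT-crossed contrast their adjusted p were 0.30 and 0.35. WT replicate 2 was the lowest WT array for both.

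In a further group of falls srKO stood above WT while prKO was not called against WT. H2-Aa, the alpha chain of an MHC class II molecule that presents peptides to T cells, read 5.34, 5.47 and 5.39 in prKO testes, against 6.28, 7.28, 7.11 and 7.58 in srKO testes and a WT median of 5.68. The groups did not overlap (-1.66 ± 0.25, 3.16-fold lower, adjusted p = 0.00026). Against WT the difference was 1.34 in srKO (adjusted p = 5.8e-05) and -0.32 in prKO (adjusted p = 0.27). Iigp1, an interferon-gamma-induced GTPase that attacks intracellular pathogens, read 5.74, 5.81 and 5.80 in prKO testes, against 6.79, 7.89, 7.29 and 7.60 in srKO testes (-1.61 ± 0.25, adjusted p = 0.00026), and its differences from WT were 1.58 in srKO and -0.04 in prKO. Il17rb, a receptor subunit for interleukins 17B and 25, read 5.29, 6.03 and 5.55 in prKO testes and 6.67 to 7.36 in srKO testes (-1.25 ± 0.27, adjusted p = 0.0028; 1.53 in srKO and 0.28 in prKO against WT). H2-Ab1, the beta chain partner of H2-Aa, differed by -0.97 ± 0.18 (adjusted p = 0.0012, and 0.074 in the WT-crossed contrast). In the WT-crossed contrast H2-Aa had -1.15 (adjusted p = 0.054) and Iigp1 -1.01 (adjusted p = 0.056). For both of these genes WT replicates 5 and 8 were the highest WT arrays. The call of Il17rb was lost with prKO replicate 2 alone (adjusted p = 0.18) and under the reverse assignment of the WT sets (adjusted p = 0.15).

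Of 7 MHC class II genes 2 fell and 0 rose between the knockouts, where 12.1% and 13.4% of all tested genes did. Of 7 genes of the general interferon response 0 were called between the knockouts. Against WT 5 of those 7 interferon genes were higher in srKO and 2 in prKO, where 14.7% and 26.0% of all tested genes were. The promoter of H2-Aa is shown because it holds the letters TGACGTCA, the palindromic cAMP response element, which in class II promoters is also known as part of the X box region. These letters occurred, on either strand, in 2.53% of all 14664 promoters, in 2.08% of genes that rose and in 4.13% of genes that fell, and H2-Aa was the only holder among 7 of the 12 largest falls with an entry. They were in 0 of 6 steroid, 0 of 12 cholesterol, 0 of 13 phosphodiesterase and 1 of 14 fast cAMP response genes. The NR5A1 site AAGGTCA was in 4.00% of all these promoters, 3.50% of genes that rose and 4.13% of genes that fell. It was in 0 of 6 steroid and 2 of 12 cholesterol genes. The H2-Aa window is chr17:34287824-34288073 on the minus strand of GRCm38.p6, printed 5′ to 3′ for that strand from RefSeq, with the TGACGTCA match in capitals, 74 bases before the start at its first base.
H2-Aa: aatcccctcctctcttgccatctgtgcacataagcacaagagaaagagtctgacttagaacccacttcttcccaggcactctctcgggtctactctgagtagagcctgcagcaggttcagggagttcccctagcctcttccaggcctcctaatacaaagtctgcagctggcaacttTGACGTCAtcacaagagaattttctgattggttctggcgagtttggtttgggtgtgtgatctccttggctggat

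Macrophage and vascular genes were partly higher in prKO. Of 17 macrophage genes 5 rose and 0 fell, where 13.4% and 12.1% of all tested genes did. Against WT 15 were higher in prKO and 14 in srKO, where 26.0% and 14.7% of all tested genes were. Cd163, the scavenger receptor of resident macrophages, read 6.19, 6.85 and 6.51 in prKO testes, against 5.13 to 5.58 in srKO testes (1.23 ± 0.15, 2.35-fold, adjusted p = 3.8e-05). Without prKO replicate 3, 2 of the 17 were called, and without prKO replicate 1, 9 were, while srKO replicates 1, 3 and 4 left 3 each when omitted. Of 11 endothelial genes 5 rose and 0 fell, against 8 rises without prKO replicate 1 and 3 without prKO replicate 3. Pecam1, an adhesion protein between endothelial cells, read 7.70, 7.92 and 8.22 in prKO testes and 6.67 to 7.14 in srKO testes (0.99 ± 0.15, adjusted p = 0.0002). Emcn, an endothelial sialomucin, rose by 1.16 ± 0.26 and Eng, a TGF-beta co-receptor, by 0.98 ± 0.21. In the WT-crossed contrast 2 of the 17 macrophage genes and 1 of the 11 endothelial genes, Pecam1, were called, with adjusted p = 0.10 for Emcn and 0.07 for Eng. Of 9 peritubular myoid and smooth muscle genes 4 rose, Acta2, smooth muscle actin, among them (0.36 ± 0.11), and 0 were called without prKO replicate 3, where Acta2 had 0.26 (adjusted p = 0.15); without srKO replicate 3 its adjusted p was 0.081, and in the WT-crossed contrast 0.29. Of 8 lymphocyte and mast cell genes 2 rose and 1 fell, with a median log2 difference of 0.01, while 13.4% and 12.1% of all tested genes did. Among them Cpa3, a protease of mast cells, read 5.29, 4.50 and 6.01 in prKO testes and was below the filter value on every srKO array. Its rise was at least 1.57-fold (adjusted p = 0.0048, and 0.12 in the WT-crossed contrast), with a difference of 0.11 for prKO replicate 2 alone.

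Genes of cystine uptake and glutathione, the main cellular thiol defence, rose in 8 of 12 cases and fell in 0, with a median of 0.68. The WT-crossed contrast called 3 of the 12. Gpx3, a secreted glutathione peroxidase, read 10.28, 9.54 and 10.29 in prKO testes, against 7.29, 7.51, 6.80 and 6.44 in srKO testes (3.03 ± 0.30, 8.15-fold, adjusted p = 4.4e-06). Gsta3, a glutathione transferase that also isomerises steroids, read 8.01, 8.14 and 7.59 in prKO testes and 5.81 to 6.37 in srKO testes (1.85 ± 0.17, 3.61-fold, adjusted p = 2e-06). Both were among the 3. Slc7a11, the cystine importer, read 8.25, 8.18 and 6.86 in prKO testes and 6.15 to 7.22 in srKO testes, overlapping through prKO replicate 3 (1.19 ± 0.29, adjusted p = 0.006).

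Of 11 complement and acute phase genes 4 rose and 0 fell, 8 rose without srKO replicate 2, and 0 were called with prKO replicate 2 alone. Hp, the haemoglobin scavenger haptoglobin, read 9.35, 6.51 and 8.48 in prKO testes and 5.55 to 6.65 in srKO testes, a pattern over arrays like that of Fabp4, and its difference of 2.08 ± 0.41 was 1.46 without replicate 1, 2.88 without replicate 2 and 0.47 with prKO replicate 2 alone (adjusted p = 0.34). Of the 11, 2 were called in the WT-crossed contrast, and Hp was not (adjusted p = 0.056). Of 11 bone and mineralisation genes 4 rose, where 13.4% of all tested genes did. Mgp, an inhibitor of calcification, rose by 1.61 ± 0.28, and Alpl, the alkaline phosphatase of bone, by 0.75 ± 0.15 (0.53 and adjusted p = 0.12 in the WT-crossed contrast). Of 6 reference genes 3 rose and 1 fell, where 13.4% and 12.1% of all tested genes did. Gapdh, a glycolytic enzyme often used for scaling, read 11.64, 11.79 and 11.98 in prKO testes and 11.07 to 11.42 in srKO testes (0.60 ± 0.11, adjusted p = 0.00073). It was called higher in prKO also after quantile normalization and after centring.

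The same comparison in mice of 2 weeks asked which differences were present before adulthood. In those mice 2234 genes were called (11.8%), 1312 higher (6.90%) and 922 lower (4.85%) in prKO, and 1415 were called without prKO replicate 4. Of the 2556 genes that rose at 2 months 620 (24.3%) also rose at 2 weeks, which is 47.3% of the rises at 2 weeks, and 46 fell there. Of the 2304 that fell at 2 months 183 (7.94%) also fell at 2 weeks, or 19.8% of the falls at that age, and 22 rose. Matrix genes were higher at 2 weeks in 22 of 30 cases, cholesterol genes in 10 of 17 and glutathione genes in 7 of 12. Dpt differed by 2.40 ± 0.45 at 2 weeks (adjusted p = 0.0017), Gpx3 by 2.53 ± 0.30, Il33 by 2.64 ± 0.35, Mrap by 2.47 ± 0.23 and Nsdhl by 1.18 ± 0.15.

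The change of the difference between the ages was called for 1444 genes (7.60%), 920 upward (4.84%) and 524 downward (2.76%). Without prKO replicate 3 of 2 months 810 were called, without srKO replicate 3 of 2 months 885, and without srKO replicate 3 of 2 weeks 941. Abcb1b differed by 1.45 at 2 weeks and 4.29 at 2 months (change 2.83 ± 0.50, adjusted p = 0.00063). Chil3, which read 4.40 to 4.67 in prKO and 4.21 to 4.74 in srKO at 2 weeks, was not called there (0.16 ± 0.16, adjusted p = 0.58), with a change of 3.15 ± 0.39. The barrier gene Ocln differed by -0.06 at 2 weeks (adjusted p = 0.83; change 1.17 ± 0.19), and Zbtb16 by -0.21 (adjusted p = 0.37; change 1.23 ± 0.18).

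Of 9 steroid synthesis genes 7 rose and 0 fell at 2 weeks, with a median of 1.46. A change between the ages was called for 4 of the 9, downward in each. Cyp11a1 differed by 2.75 ± 0.20 at 2 weeks and 0.92 ± 0.16 at 2 months (change -1.82 ± 0.27, adjusted p = 0.0001), and Cyp21a1 by 4.06 ± 0.26 and 1.55 ± 0.33 (change -2.51 ± 0.43). Hsd3b6 was 1.77 ± 0.52 higher at 2 weeks (adjusted p = 0.031) and lower by -1.98 at 2 months, a change of -3.74 ± 0.66 (adjusted p = 0.00075). Angptl7, a secreted angiopoietin-like protein gene, likewise differed by 1.77 ± 0.24 at 2 weeks and by -0.94 ± 0.18 at 2 months (adjusted p = 0.076 in the WT-crossed contrast). Lcn2, the iron-siderophore carrier lipocalin 2, differed by 2.93 ± 0.46 at 2 weeks and by -0.24 ± 0.16 at 2 months, where it was not called (adjusted p = 0.30). Cyp11b1 went the other way, with 0.34 ± 0.10 at 2 weeks and 2.11 at 2 months (change 1.77 ± 0.36, adjusted p = 0.0024). H2-Aa (0.04, adjusted p = 0.82) and Iigp1 (0.45, adjusted p = 0.36) were not called at 2 weeks, with changes of -1.70 ± 0.27 and -2.07 ± 0.40.

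**Figure D4:**
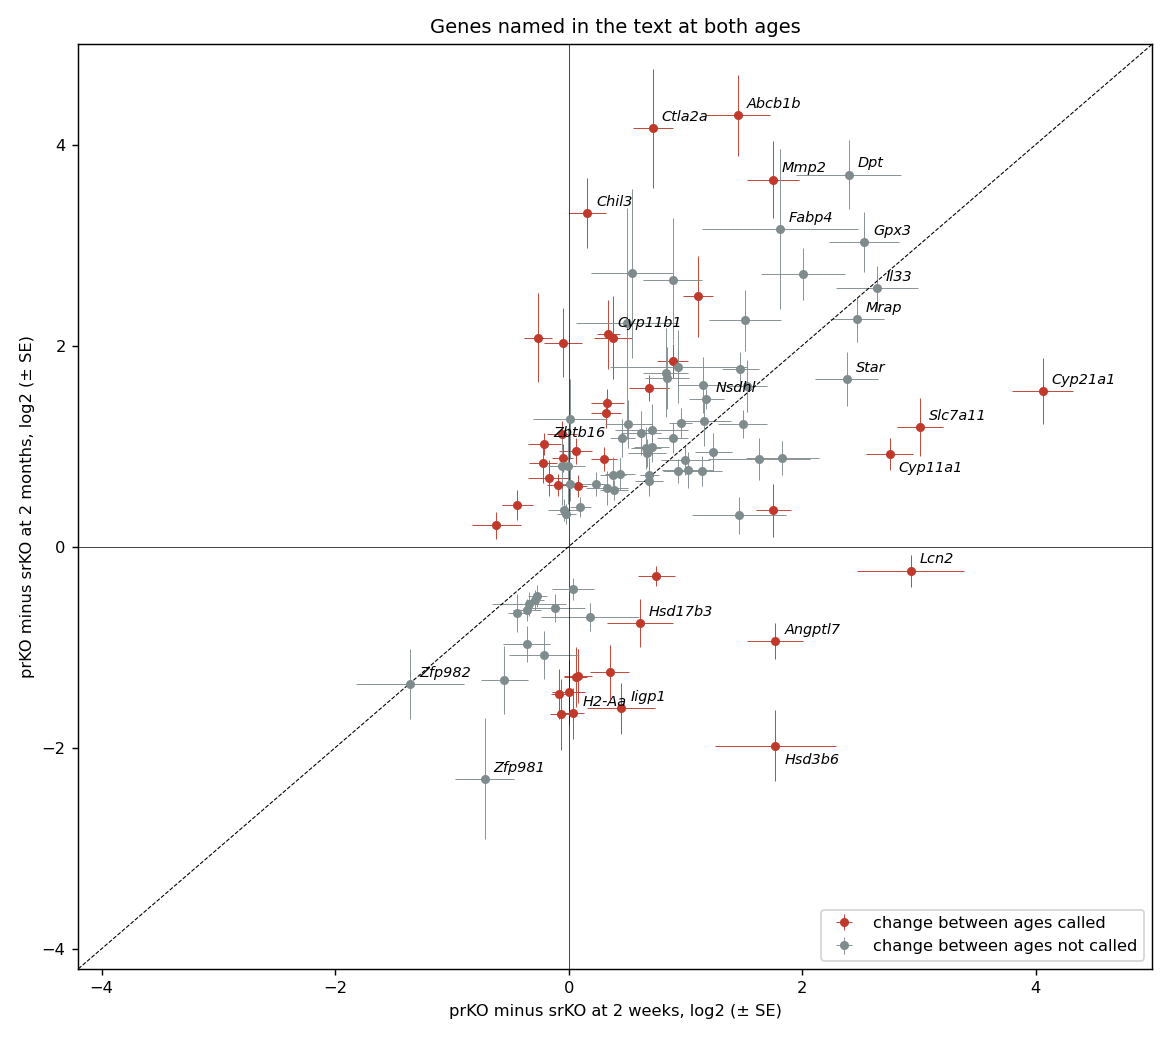
Log2 difference of prKO minus srKO at 2 weeks (horizontal) and 2 months (vertical) for the genes named in the text, with standard errors, the line of equality, and red points where the change between ages was called. Many of these genes were named for a large difference at 2 months, so their spread along the vertical axis is partly set by that choice; Cyp21a1, Cyp11a1 and Slc7a11 lie below the line and Abcb1b, Ctla2a and Chil3 above it. The points of Ctla2a and Lep are fitted values whose srKO arrays at 2 months were below the filter value.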

How the data were processed

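Whole-testis RNA was measured on Affymetrix GeneChip arrays, 1 array per sample. The deposited values are log2 intensities made by the authors with RMA, per the submitters' processing notes; no source used here gives its settings. Of 41345 probe sets 23521 had 1 gene symbol in the platform annotation, 1814 had several and 16010 had none listed. Each gene was represented by its probe set of highest mean (1082 of 22180 genes had more than 1), and 19007 genes with a group mean above 4.62, the 25th percentile of all values, were tested.

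The 19 arrays of 2 months, grouped by genotype label and including 4 arrays of lrKO mice (Cyp11a1:Cre) that add only to the estimate of spread, were fitted together with limma 3.58.1 in R 4.3.3 (lmFit, eBayes, two-sided), as were the arrays of 2 weeks, and all 39 arrays for the change between ages. P-values were adjusted by Benjamini-Hochberg over all tested genes, with a threshold of 0.05. The procedure was tested on simulated data with independent noise and the same spread in every group. That setting lacks the wider scatter of the prKO arrays, so it cannot test how that scatter affects the calls. The number of arrays limits the precision. Where every srKO array was below 4.62, the fold is given as a lower bound against that value. Marker sums are log2 of summed linear intensities.

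Members and the 32 gene lists were chosen with earlier results of these data known. Genes named are Prkar1a, Nr5a1, Amh, genes among the 12 largest called rises and falls, up to 8 members of each list by size of difference, and genes among the 5 largest changes between ages in each direction. The sterol motif, the omission of prKO replicates 1 and 3 together and the omission of single WT arrays were chosen after the data were seen. Alternatives covered filters, probe set choice, normalization, array weights, arrays fitted and left-out arrays.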

Additional observations from a re-analysis of the deposited data

Results flagged for a closer look

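Among the genes named in the text, 18 of 210 groups of 4 or more arrays at 2 months held an array far from the others by Dixon's criterion, which chance gives in about 1 of 20 groups. In srKO these were srKO replicate 1 for Adam7 (5.56), srKO replicate 2 for Nr5a1 (8.37), Ogn (9.13) and Star (10.21) and srKO replicate 4 for Foxl2 (5.31) (log2 level). In WT they were WT replicate 1 for Amh (5.87), Cyp11b1 (5.31) and Tgfb2 (6.03), WT replicate 2 for Gapdh (10.62), Zfp981 (6.60) and Zfp982 (6.16), WT replicate 3 for Angptl7 (7.07) and Cyp2e1 (5.52), WT replicate 4 for Acta2 (10.21), WT replicate 6 for Hsd11b1 (4.71), WT replicate 7 for Col3a1 (7.99) and Sycp1-ps1 (7.47) and WT replicate 8 for Cd163 (4.65).

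The difference of prKO minus srKO itself changed between 2 weeks and 2 months for 41 named genes, by the limma test of the change (adjusted p under 0.05). Many of these genes were named for a large difference at 2 months. For Ctla2a and Lep the fitted changes (3.45 and 2.34) have no exact size, since every srKO array at 2 months was below the filter value. Among the others, upward changes (log2, 2 months minus 2 weeks) were in Chil3 (3.15), Abcb1b (2.83), Fn1 (2.09), Mmp2 (1.90), Cyp11b1 (1.77) and Hp (1.70). Smaller upward changes were in Prg4 (1.39), Zbtb16 (1.23), Ocln (1.17), Rgs2 (1.09), Pde8b (1.05), Insig1 (1.01), Gsta3 (0.96) and Gja1 (0.93). The rest were in Fdps (0.89), Prkar2b (0.89), Ccnd1 (0.85), Fshr (0.85), Amh (0.83), Axin2 (0.70), Hmgcs1 (0.57) and Gapdh (0.52). The largest downward changes were in Hsd3b6 (-3.74), Lcn2 (-3.17), Angptl7 (-2.71), Cyp21a1 (-2.51), Iigp1 (-2.07), Cyp11a1 (-1.82), Slc7a11 (-1.81), H2-Aa (-1.70) and Il17rb (-1.60). Other downward changes were in Rbm31y (-1.60), Sycp1-ps1 (-1.45), Cngb3 (-1.39), Hsd3b1 (-1.39), Hsd17b3 (-1.37), Kcnab3 (-1.37), Adam29 (-1.36) and Pde10a (-1.04).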

How the results depend on the processing

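The count of 4860 genes called between prKO and srKO testes at 2 months was 1083 (705 higher, 378 lower) when only these arrays were fitted, 455 (338 higher, 117 lower; 435 shared with the 4860) in the WT-crossed contrast, and 2090 (1274 higher, 816 lower; 1492 shared) without prKO replicates 1 and 3. Leaving out each prKO or srKO array in turn gave 2683 to 5253. Other filters, probe set choice, normalizations, weights, priors and the fit of all 8 groups gave 3708 to 4942. Centring on array medians gave 2252 higher and 2466 lower, and quantile normalization 2275 higher and 2667 lower.

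At 2 weeks array weights gave 3650 calls and single omissions 1415 to 1858. For prKO against WT the count was 6050 without prKO replicates 1 and 3. Leaving out each prKO array in turn gave 7359 to 8918, and each WT array 8866 to 9288. For srKO against WT, leaving out each srKO array in turn gave 3514 to 4638, and each WT array 4443 to 4786. The change between ages had 2455 calls with array weights, 510 with only the groups compared, 943 without prKO replicates 1 and 3, and 810 to 2031 with single omissions. The causes were not tested.

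Replicate numbers did not pair the samples (correlation of deviations at 2 months -0.04, -0.00 and -0.28), and a fit with the replicate number as a block called 3348 genes (1903 higher, 1445 lower), 6771 for prKO against WT, 3626 for srKO against WT and 1081 for the change between ages. Of the named genes 97 were called, 30 of them under every alternative run. The call was kept by 37 in the WT-crossed contrast, by 66 with prKO replicate 2 alone and by 53 when only the groups compared were fitted, where it was lost by Acta2, Adam29, Axin2, Ccnd1, Ceacam10, Cldn3, Col3a1, Cpa3, Crispld2, Cyp21a1, Cyp2e1, Emcn, Eng, Fabp4, Fdx1, Fgf2, Fn1, Foxl2, Fstl1, Hormad1, Hormad2, Hp, Hsd11b1, Hsd17b3, Kit, Lep, Mgp, Nek6, Nr5a1, Pde10a, Pde3a, Pde7b, Pde8a, Pde8b, Pdgfra, Pkia, Postn, Prkacb, Rbm31y, Sfrp1, Slc7a11, Spo11, Tgfb2 and Top2a. Direction turned for Adam7 (-0.23 without prKO replicate 1, -0.34 without prKO replicates 1 and 3) and Cyp17a1 (-0.0631 in the WT-crossed contrast), neither of which was called. Without prKO replicate 2, Adam7 differed by 3.5 (adjusted p = 0.034).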
